A study of Rattus norvegicus with 18 samples.

Results

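Rat lungs that had lost their blood flow for 2 h under a clamp on the left hilum, and were then reperfused for 3 h, were compared with normal lungs. The comparison took in 9 of the 18 arrays of the series, chosen by their titles alone. These were the 3 left lungs clamped and reperfused for 3 h and the 6 controls, and every probe set other than the array maker's controls was considered. The operated animals were male Sprague-Dawley rats under anaesthesia. They were ventilated through a tracheotomy, their left chest was opened, and the left lung was taken out for RNA after the clamp and 3 h of reperfusion with ventilation. The 6 controls were lungs of 6 rats, taken straight after anaesthesia and killing. No group of rats had the operation without the clamp, so the operation, the ventilation, the clamp and the reperfusion cannot be told apart in this comparison. The labels do not give the side of the control lungs or the age of the rats. Where a direct comparison is given, it is with left lungs clamped for 2 h and reperfused for 30 min (n = 3), or with the unclamped right lungs of the 3 h rats (n = 3).

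Warm ischaemia stops the supply of oxygen and of blood-borne fuel, although a ventilated or inflated lung keeps some oxygen in its air spaces. When flow returns, oxidants form, the endothelium displays adhesion molecules, neutrophils are drawn in and the barrier between blood and air leaks, an injury also met in lung transplantation. Cells answer damaged protein with heat shock factor, which raises chaperones, and answer stress in the endoplasmic reticulum and shortage of amino acids through ATF4. They answer cytokines and microbial or damage signals through NF-kB and STAT3.

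Each array gave 1 signal per probe set on a linear intensity scale, as the MAS5 program writes it, and the authors had scaled all arrays to the same trimmed mean of 500.1. Of 15866 probe sets, 10533 had at least 3 of 18 arrays above 173.6, the 40th percentile of all signals, and were tested. They stood for 7728 named genes, each represented by its brightest tested probe set. Signals below are those deposited values. Log2 differences (given ± SE) and folds were taken on log2(signal + 25), which understates the change of dim genes, and no fold is given where a group's mean signal was under 50. The median array signal was 232.3, 236.9 and 260.6 in the 3 clamped lungs and 261.9 to 283.8 in the controls (exact permutation p = 0.0119, two-sided, the smallest that 3 against 6 arrays allow, adjusted p = 0.0333 over 14 array measures). The median gene was 0.13 lower on the log2 scale in the clamped lungs, and list medians below have this shift taken off (relative median). The 3' actin probe set divided by the 5' one, a measure of RNA degradation, gave 1.49 to 1.62 in the clamped lungs and 1.31 to 1.54 in the controls. The exact permutation p of that difference was 0.0833 (adjusted p = 0.121). Nothing in the labels says whether the control arrays were run with the operated ones. The spread behind each p-value is that from lung to lung.

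Of the 7728 genes, 1044 were higher (13.5%) and 1864 lower (24.1%) than control at a limma adjusted p under 0.05. Over probe sets, 1456 of 10533 were higher (13.8%) and 2521 lower (23.9%). With every array set to the same median log2 value, 1510 were higher and 956 lower, so which direction was more frequent depended on the scaling. A change of at least 2-fold was found in 276 of the genes called higher and 166 of those called lower, and of at least 4-fold in 55 and 5. In 909 of the 1044 higher genes all 3 clamped lungs lay above all 6 controls, and in 1517 of the 1864 lower genes all 3 lay below them. Over all genes tested, 13.8% had the clamped lungs above every control and 23% below every control.

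The 3 clamped lungs were not alike. Replicate 1 held the highest of the 3 signals in 236 of the 276 genes that rose at least 2-fold, and the lowest in 117 of the 166 that fell at least 2-fold. Without replicate 1, 670 genes were called higher and 963 lower. Fewer cells of a type and less RNA per cell cannot be told apart in these tissue samples, here and in all results below. The plot of gene groups gives the counts behind the sections that follow. They are to be read against the 13.5% of all genes that were higher and the 24.1% that were lower. In 11 of 48 lists neither share was above these, namely those of airway, type I, red cell and platelet, muscle and other tissue markers and of clock, complement, eicosanoid, matrix, respiratory chain and ribosomal genes.

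**Figure D1:**
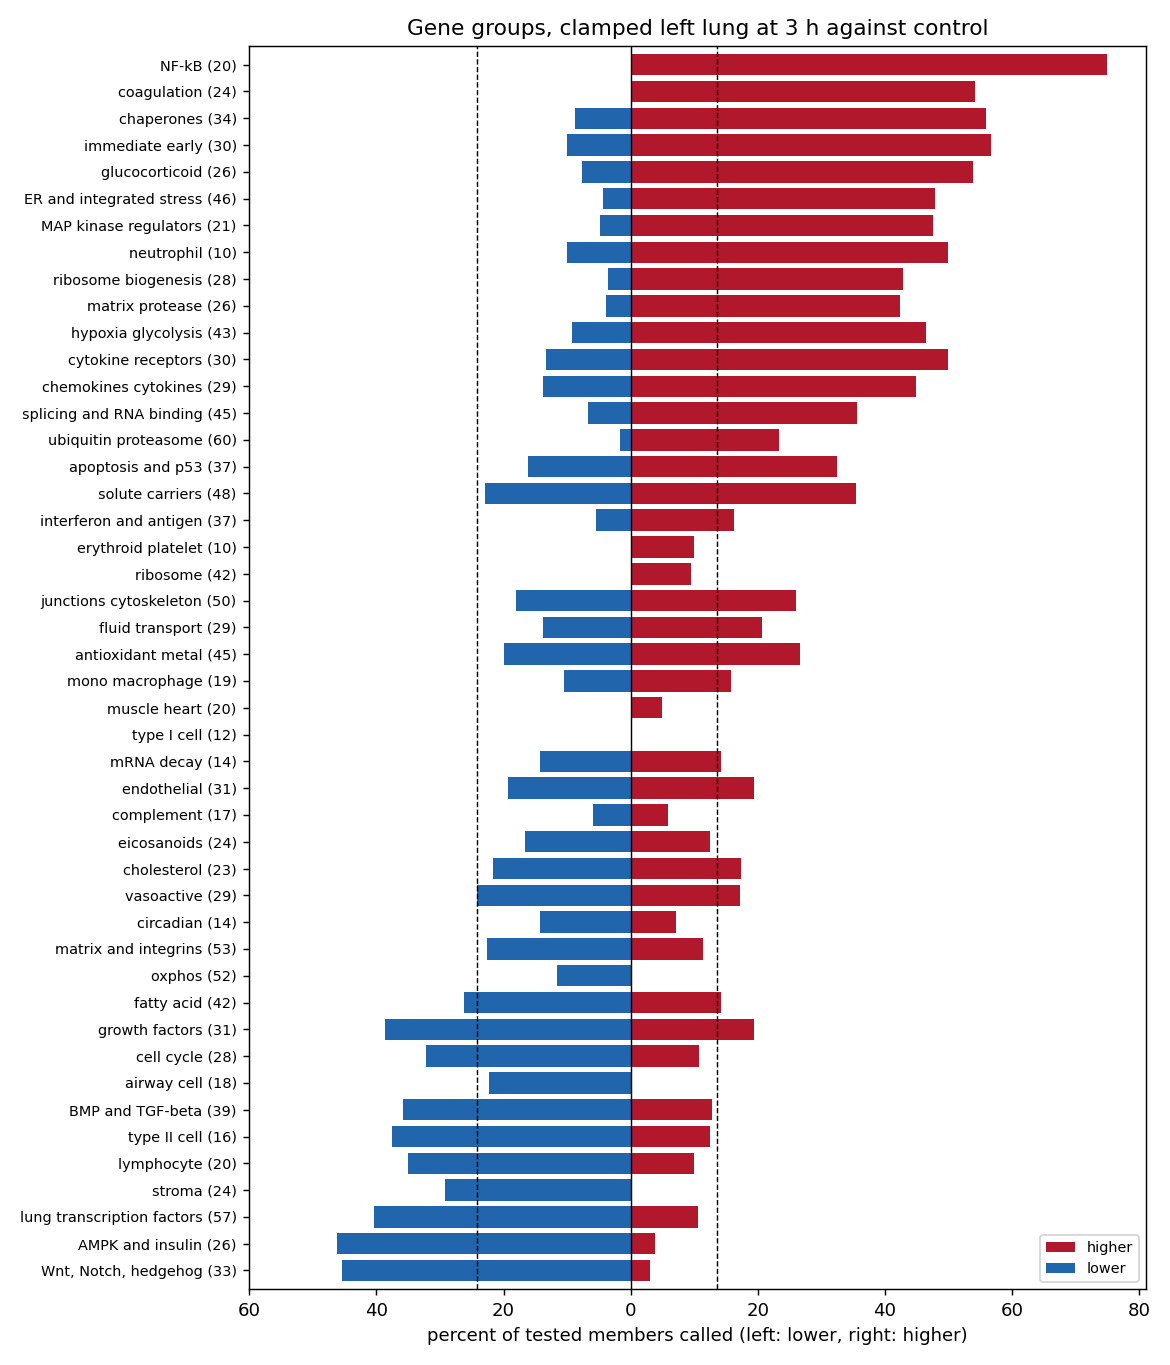
Percent of the tested members of each gene group with at least 10 of them that were higher (right) or lower (left) in the 3 clamped lungs than in the 6 controls at a limma adjusted p under 0.05. Numbers in brackets are tested members, and the dashed lines mark the 13.5% and 24.1% of all 7728 genes that were higher and lower. NF-kB genes reach farthest to the right, followed by immediate early, chaperone and coagulation genes, and AMPK, Wnt and lung transcription factor genes reach farthest to the left.

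Many chaperones were higher after the clamp and 3 h of reperfusion. Chaperones hold and refold damaged protein, and heat shock factor raises their transcription under stress. Signals of Hspa1a, the inducible HSP70, were 12648, 11284 and 11863 in the 3 clamped lungs and 856 to 1452 (median 1108) in the controls. The array may not separate Hspa1a from its near-identical copy Hspa1b. Hspb1, a small heat shock protein that binds unfolded protein and actin, stood at 12667, 10933 and 11223 against 1931 to 3440.1 (median 2567). In both genes the 3 clamped lungs lay close together, replicate 1 included, and far above every control. The HSP110 gene Hsph1, which exchanges nucleotide on HSP70, gave 8041, 6487 and 6065 against 1012 to 1677 (median 1092). The DNAJ proteins bring clients to HSP70, and Dnajb1 gave 4255, 2928 and 4666 against 636 to 833 (median 708). Its relative Dnaja1 stood at 8216, 5813 and 6821 against 1360.0 to 2222 (median 1586). In each of the 5 genes all clamped lungs lay above all controls. As folds these were 10.4-fold, 4.59-fold, 5.77-fold, 5.24-fold and 4.17-fold (log2 differences 3.38 ± 0.27, 2.20 ± 0.20, 2.53 ± 0.23, 2.39 ± 0.17 and 2.06 ± 0.15, SE, limma adjusted p = 3e-07, 1.1e-06, 1.1e-06, 9.5e-08 and 1.3e-07).

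Of 34 tested members of the chaperone list 19 rose and 3 fell, with a relative median of 0.58 (24 and 2 with equal array medians). Bag3, a co-chaperone that links HSP70 to autophagy, rose 3.26-fold (signals 5092, 2778 and 4336 against 1107 to 1333). The mitochondrial chaperonin and its lid, Hspd1 and Hspe1, rose 2.88-fold and 2.44-fold, the lens and muscle chaperone Cryab 2.07-fold, Hspb8 2.73-fold and the HSP70-HSP90 adaptor Stip1 2.04-fold. Zfand2a, a proteasome adaptor raised by arsenite and heat, was outside the list and rose 8.49-fold, from 197 to 300.02 (median 235) to 3703, 1788 and 1611. The transcript of heat shock factor itself, Hsf1, did not pass (signals 339.5, 329.7 and 384 against 362 to 422, median 387, adjusted p = 0.28). Hspa4, an HSP110 relative, moved the other way, with 501, 379 and 366 against 780.1 to 919 (median 869), a fall of 2.04-fold.

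Heat shock factor binds inverted repeats of the bases GAA, so the promoters of members that rose together were searched on both strands for 3 perfect units, GAA, TTC and GAA, each parted from the next by any 2 bases (NN). The windows run from 250 bases before to 50 bases after the start of the gene in RefSeq (build GRCr8), printed 5' to 3' in the gene's direction with the matches in capitals, overlapping matches running together. Of the members of the chaperone list that rose, 16 had a window and 5 of these held the repeat (31.2%), as did 1 of 12 members that did not rise (8.33%) and 33 of 6471 windows of all tested genes (0.51%). The next lines show 3 of the windows, because these genes rose and differ in where the repeat lies.
Hsph1 (chr12:10427118-10427417, plus strand): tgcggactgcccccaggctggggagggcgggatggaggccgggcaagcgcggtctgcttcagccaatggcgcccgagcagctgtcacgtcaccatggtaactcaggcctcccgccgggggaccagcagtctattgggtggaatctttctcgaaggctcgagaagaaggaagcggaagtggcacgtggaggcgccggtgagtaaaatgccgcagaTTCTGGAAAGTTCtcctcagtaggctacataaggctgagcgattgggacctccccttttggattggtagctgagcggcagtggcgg
Dnaja1 (chr5:60638154-60638453, plus strand): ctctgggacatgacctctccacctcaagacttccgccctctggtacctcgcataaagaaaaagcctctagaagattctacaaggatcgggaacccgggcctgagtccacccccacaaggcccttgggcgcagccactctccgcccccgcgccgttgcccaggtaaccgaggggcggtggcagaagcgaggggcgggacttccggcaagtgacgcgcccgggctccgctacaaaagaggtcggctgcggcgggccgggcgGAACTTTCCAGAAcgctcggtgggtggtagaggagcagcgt
Hspe1 (chr9:64084077-64084376, plus strand): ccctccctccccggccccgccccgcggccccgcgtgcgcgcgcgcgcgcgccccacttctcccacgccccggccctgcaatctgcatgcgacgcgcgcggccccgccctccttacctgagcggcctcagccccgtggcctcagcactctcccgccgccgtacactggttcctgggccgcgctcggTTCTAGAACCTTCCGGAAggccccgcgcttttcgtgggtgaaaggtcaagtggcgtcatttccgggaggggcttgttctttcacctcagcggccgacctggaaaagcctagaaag
The repeat lay 36 to 24 bases before the start of Hsph1. In Dnaja1 it lay at bases 10 to 22 of the transcript. Hspe1 and Hspd1 are head-to-head neighbours, and the 2 overlapping repeats in the Hspe1 window, from 65 to 48 bases before its start, lie in the Hspd1 window as well. The windows of Hspa1a, Hspb1, Dnajb1, Bag3, Zfand2a and Hspa4 held no perfect repeat of 3 units, which says only that these letters are not in that window.

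**Figure D2:**
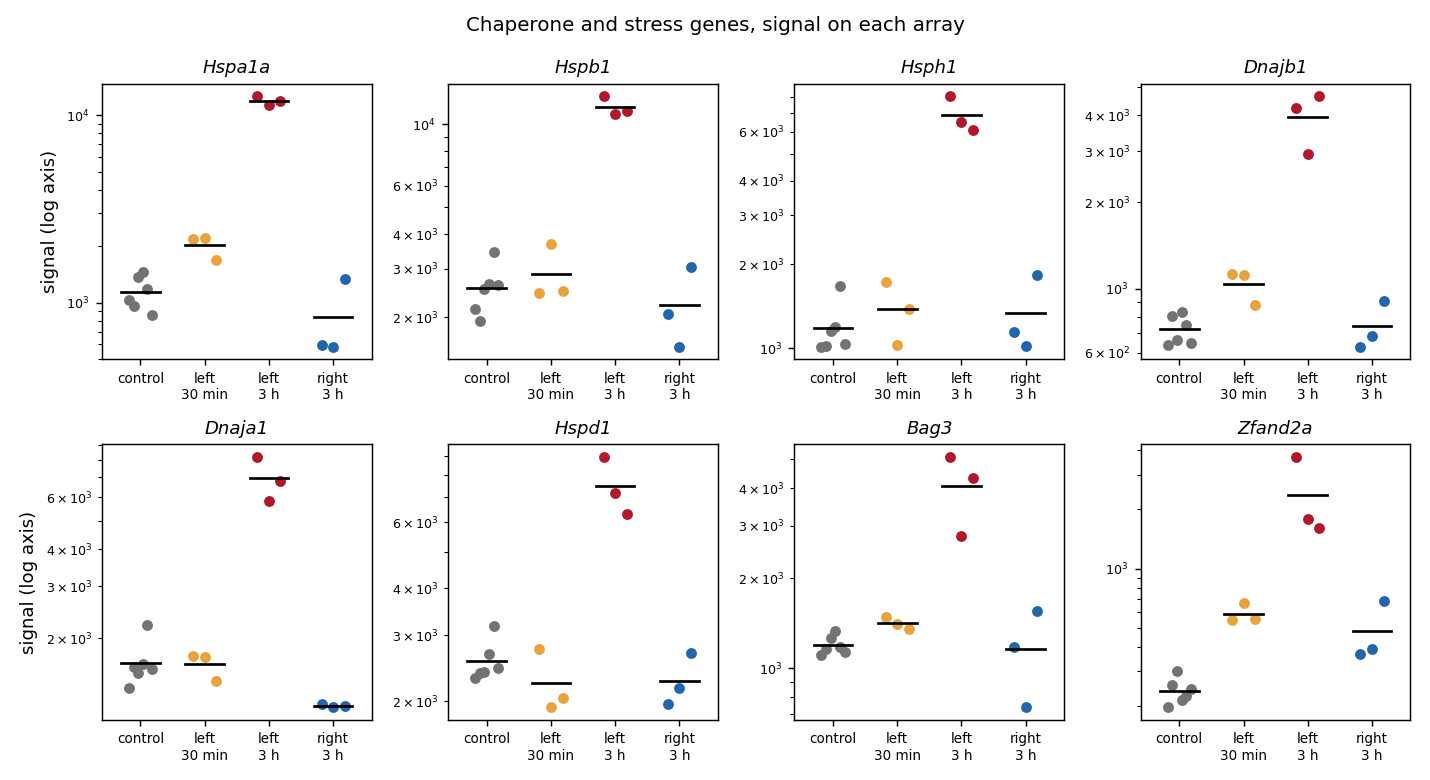
Signals of 8 chaperone and stress genes on each array (log axis), in controls (n = 6), clamped left lungs at 30 min (n = 3) and 3 h (n = 3), and unclamped right lungs at 3 h (n = 3). Points are arrays and bars are group means. The 3 h clamped lungs lie above every control in all 8 genes, with Hspa1a at 11284 to 12648.

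Part of the chaperone list was also higher at 3 h than at 30 min, and in the clamped than in the unclamped lung. In lungs clamped in the same way and reperfused for 30 min the signals of Hspa1a were 2196, 2203 and 1696, and in the unclamped right lungs at 3 h they were 596, 583 and 1340.4. Directly compared, the clamped 3 h lungs were higher than the 30 min lungs by 2.55 ± 0.31 (log2, SE, adjusted p = 0.00022) and higher than the right lungs by 3.90 ± 0.31 (adjusted p = 1.9e-06). For Dnaja1 the differences were 2.06 ± 0.18 and 2.52 ± 0.18 (adjusted p = 6e-06 and 5.2e-07), and for Hspd1 they were 1.73 ± 0.21 and 1.70 ± 0.21 (adjusted p = 0.00018 and 0.0002). Bag3 differed by 1.47 ± 0.22 and 1.81 ± 0.22 (adjusted p = 0.0018 and 0.00021) and Hspb1 by 2.03 ± 0.23 and 2.42 ± 0.23 (adjusted p = 0.00011 and 8.7e-06). The differences were 2.32 ± 0.26 and 2.38 ± 0.26 for Hsph1 (adjusted p = 0.00011 and 6.6e-05) and 1.88 ± 0.19 and 2.36 ± 0.19 for Dnajb1 (adjusted p = 4.2e-05 and 2.1e-06). In all, 14 of 34 chaperone genes were higher than at 30 min, as were 1.23% of all genes, and 12 were higher than in the right lungs, as were 1.75% of all genes. Between 9 and 16 of them passed against 30 min when any 1 array of those 2 groups was left out, with 9 without 3 h replicate 1, and 10 to 12 passed against the right lungs when 1 array was left out.

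Immediate early transcription factors, which cells make within minutes of growth factor, stretch or stress signals, were high at 3 h. Signals of Fosl1, a late member of the AP-1 family, were 1693, 756 and 756 against 99.6 to 173 (median 147), a rise of 6.04-fold (2.60 ± 0.38, adjusted p = 9.7e-05). Myc, a driver of growth, gave 1504, 1045 and 1158 against 201 to 271 (median 241), a rise of 4.72-fold (2.24 ± 0.29, adjusted p = 3.3e-05). No clamped lung overlapped the controls in either gene. The stress factor Atf3 stood at 3988, 2308 and 4017, and the controls ran from 161 to 1938. For Fos the controls ran from 166 to 2027 and for Egr1 from 613 to 4335. The control lungs were widely spread in these genes, and the rises had wide errors, at 2.74 ± 0.61 for Atf3 (adjusted p = 0.0023), 2.64 ± 0.76 for Fos (adjusted p = 0.012) and 1.72 ± 0.63 for Egr1 (adjusted p = 0.04). Of 30 genes 17 rose and 3 fell (relative median 1.02). Rises above 2-fold were also found in Jund, Junb, Nr4a3, Crem, Ier3, Mafk, Srf and Klf9. Srf was 2.27-fold higher by its brighter probe set and did not pass by its dimmer one (log2 0.14). Without clamped replicate 1 Fos and Nr4a3 did not pass, nor did Jund without replicate 3, and Egr1 did not pass without any 1 of the 3 clamped lungs or without control 1, 2, 5 or 6. Klf2, a flow-induced factor that keeps endothelium quiet, fell 2.73-fold (1484, 1703 and 1673 against 3459 to 5912, median 4288).

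Genes that feed or restrain MAP kinase signals rose too. The kinase Map3k8, which feeds ERK downstream of Toll-like and TNF receptors, rose 4.39-fold (933, 535 and 540.1 against 92.9 to 166, median 127, adjusted p = 1.1e-06). Errfi1, an inhibitor of the EGF receptor, rose 3.44-fold, the G-protein brake Rgs16 3.16-fold and Rgs2 2.51-fold, Map2k3 2.66-fold and the phosphatases Dusp5 2.1-fold and Dusp1 1.93-fold (a dimmer Dusp1 probe set did not pass). Dusp6 did not pass by its brighter probe set (log2 -0.01, adjusted p = 0.98) nor by its dimmest one (0.03), and rose by the other (0.92, adjusted p = 0.012). Of 21 such genes 10 rose and 1, the pericyte gene Rgs5, fell. Without clamped replicate 1, 6 rose, and Dusp1, Dusp5 and Rgs5 did not pass. Of 14 genes of regulated mRNA decay 2 rose (Zfp36l2 and Btg3, at 1.46-fold and 1.99-fold) and 2 fell (Khsrp and Cnot8, at 2.28-fold and 1.35-fold). Each share was 14.3%, beside 13.5% of all genes higher and 24.1% lower. Zfp36l2 did not pass without replicate 1, nor Cnot8 with equal array medians, when 5 genes of the list rose and 1 fell.

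Several inflammatory messengers were highest in replicate 1. Il6, the cytokine of the acute phase response, had signals of 3701, 626 and 699 against 38.1 to 54 (median 48.5, adjusted p = 3.2e-05). The neutrophil chemokine Cxcl2 gave 3487, 463 and 551 against 66.7 to 142 (median 111), a rise of 7.58-fold (2.92 ± 0.57, adjusted p = 0.00096). The monocyte chemokine Ccl2 gave 3131, 782 and 921 against 46.8 to 161 (median 89.9), a rise of 11.9-fold (3.57 ± 0.44, adjusted p = 1.9e-05). In all 3 genes replicate 1 was several times above the other 2 clamped lungs, which in turn lay far above every control. Cxcl1, a relative of Cxcl2, was more even at 4456, 2569.6 and 2898 against 260.3 to 680.3 (median 429, 7.34-fold, 2.88 ± 0.30, adjusted p = 4e-06). Among interleukin 1 genes Il1b rose 2.72-fold (2499, 802 and 839 against 312 to 514) and Il1a 2.41-fold, while the decoy receptor Il1r2, which binds interleukin 1 without signalling, had the largest rise of all genes at 21.4-fold (4858, 1745 and 993 against 39 to 106, median 75.7). Tnf stood at 109, 95 and 164 against 23.2 to 81.5, a rise of 1.89-fold at signals near the bottom of the range (adjusted p = 0.012).

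Not every cytokine rose. Of 29 tested cytokine genes 13 were higher and 4 lower (relative median 0.60), and none was lower with equal array medians or without replicate 1, and 1 or 2 were lower without replicate 2 or without control 1, 2, 3, 4 or 6. Il1a and Il1b did not pass without replicate 1, nor Tnf without replicate 3. Csf1, the macrophage growth factor, rose 2.16-fold (685, 842 and 865 against 265 to 396) and was also higher than in the 30 min lungs (1.01 ± 0.21, adjusted p = 0.02) and the right lungs (1.16 ± 0.21, adjusted p = 0.0081). Cxcl14 rose 1.92-fold, Cxcl10 2.48-fold and Ccl17 3.0-fold. Ccl20 did not pass (log2 0.45, adjusted p = 0.31). Cxcl12, which holds leukocytes and progenitors, fell 1.33-fold (adjusted p = 0.048), but 2 other probe sets of it did not pass, nor did it with equal array medians, without clamped replicate 1 or 2 or without any 1 control.

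The NF-kB target sequence was sought in the promoters of these genes as GGG, any 2 bases (NN) and TTTCC, on both strands. It occurred in 3 of 11 windows of cytokine genes that rose (27.3%), in 1 of 12 of those that did not rise (8.33%) and in 118 of 6471 windows of all tested genes (1.82%). In the NF-kB list it occurred in 2 of 12 windows of genes that rose (16.7%) and 1 of 4 of those that did not (25%). The 3 windows of cytokine genes that rose are printed with the matches in capitals, since they belong to 3 of the cytokine genes with the largest rises.
Il6 (chr4:5894526-5894825, minus strand): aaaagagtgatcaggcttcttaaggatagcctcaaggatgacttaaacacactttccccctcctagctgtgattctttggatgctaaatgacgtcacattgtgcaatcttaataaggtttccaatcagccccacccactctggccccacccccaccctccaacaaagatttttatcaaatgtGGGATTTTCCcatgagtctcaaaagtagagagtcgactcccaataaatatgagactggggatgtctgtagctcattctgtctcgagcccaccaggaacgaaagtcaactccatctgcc
Cxcl1 (chr14:17479272-17479571, minus strand): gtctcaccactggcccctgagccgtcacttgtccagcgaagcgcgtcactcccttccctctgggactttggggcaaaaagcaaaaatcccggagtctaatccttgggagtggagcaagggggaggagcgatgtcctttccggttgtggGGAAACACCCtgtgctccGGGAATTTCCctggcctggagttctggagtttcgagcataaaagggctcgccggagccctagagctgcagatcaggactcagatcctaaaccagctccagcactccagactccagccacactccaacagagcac
Cxcl2 (chr14:17467206-17467505, minus strand): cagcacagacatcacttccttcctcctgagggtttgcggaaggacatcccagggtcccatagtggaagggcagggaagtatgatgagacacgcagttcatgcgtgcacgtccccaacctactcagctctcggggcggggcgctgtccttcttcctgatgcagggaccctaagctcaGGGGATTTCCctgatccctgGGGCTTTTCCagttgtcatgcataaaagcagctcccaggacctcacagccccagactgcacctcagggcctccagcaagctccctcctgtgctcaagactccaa
The match in Il6 lay 68 to 59 bases before the start. Cxcl1 held 2 matches, at 102 to 93 and 84 to 75 bases before the start, and Cxcl2 held 2, at 74 to 65 and 54 to 45. A full cAMP response element, TGACGTCA, lay 162 to 155 bases before the start of Il6. That element was present in 3.03% of the windows of all tested genes. Binding was not measured in these lungs.

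Receptors and signal carriers of the same pathways rose too. Tnfrsf12a, the TWEAK receptor that injured epithelium displays, gave 2783, 1938 and 1742 against 194 to 247 (median 226), a rise of 8.59-fold (3.10 ± 0.29, adjusted p = 1.7e-06). The endotoxin co-receptor Cd14 rose 4.96-fold (4567, 3139.7 and 2079 against 420.4 to 811), whereas its partner Tlr4 fell 2.24-fold (147, 203 and 169 against 347 to 557). On the interleukin 6 side the shared receptor chain Il6st rose 2.12-fold, Il6r 1.88-fold, the transcription factor Stat3 2.59-fold and its inhibitor Socs3 3.79-fold. Of 2 more probe sets of Il6st 1 rose (log2 1.28) and 1 did not pass (0.31), and the second of Stat3 did not pass (0.47). The chemokine receptor Cxcr4 fell 1.94-fold. Of 30 receptor and adaptor genes 15 rose and 4 fell (relative median 0.85, 2 falling without replicate 2 and 2 with equal array medians).

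In the NF-kB group 15 of 20 genes rose and 0 fell (relative median 0.75). The hyaluronan-binding protein Tnfaip6 rose 6.3-fold (1233, 401 and 484 against 65.9 to 91.8, median 79), the caspase and signalling regulator Birc3 3.27-fold and the inhibitor Nfkbia 2.21-fold. The subunits Relb and Rela rose 2.08-fold and 1.79-fold, and Nfkb1 did not pass (log2 0.35, adjusted p = 0.052). Relb, Rela, Birc3 and Tnfaip6 were also higher than in the right lungs of the same rats, by 0.86 ± 0.18, 0.76 ± 0.16, 1.35 ± 0.27 and 1.75 ± 0.36 (log2, SE, adjusted p = 0.02, 0.02, 0.015 and 0.019). None of the 4 differences passed without 3 h replicate 1. In all, 8 of these 20 genes were higher on the clamped side, as were 1.75% of all genes. Over all genes the number higher fell from 135 to 23 without 3 h replicate 1, and no such count was made for this list.

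**Figure D3:**
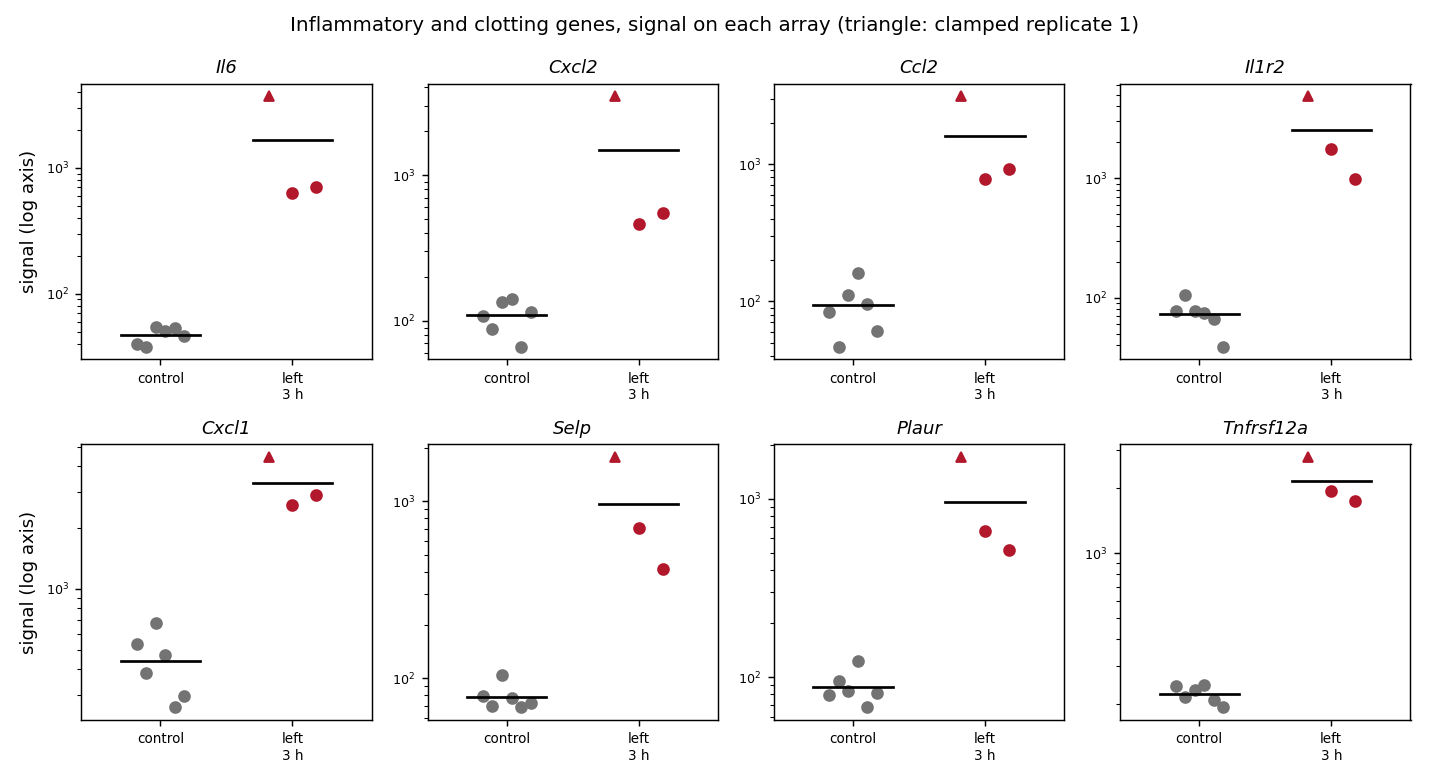
Signals of 8 inflammatory and clotting genes on each array (log axis), in controls (n = 6) and in clamped left lungs at 3 h (n = 3). The triangle marks clamped replicate 1 and the circles the other arrays, and bars are group means. Replicate 1 is the highest clamped lung in all 8 genes, and every clamped lung lies above every control.

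Of 24 genes of clotting and clot removal 13 rose and 0 fell (relative median 0.60). Among those that rose, Selp, the platelet and endothelial selectin that catches leukocytes, gave 1780.0, 702 and 413 against 68.6 to 105 (median 74.9), a rise of 8.07-fold (3.01 ± 0.41, adjusted p = 5.5e-05). The endothelial selectin Sele, outside this list and near the bottom of the signal range in controls, gave 582, 153 and 264 against 3.48 to 58.3 (median 18.1, adjusted p = 8e-05). Tissue factor, F3, which starts coagulation, stood at 6264, 4741 and 5603 against 571 to 1593 (median 847), a rise of 6.02-fold (2.59 ± 0.30, adjusted p = 1.2e-05). The 3 clamped lungs were close together for F3, all above every control, and the difference from the right lungs did not pass (0.41 ± 0.35, adjusted p = 0.57). The protease inhibitor Tfpi2 rose 14.9-fold (3287, 652 and 1309 against 68 to 82, median 69.5) and the urokinase receptor Plaur 7.71-fold (1722, 660.2 and 515 against 67.7 to 123, median 82.6). The plasminogen activator Plat rose 2.94-fold and its cofactor S100a10 2.37-fold. Tfpi, the constitutive inhibitor of tissue factor, did not pass (log2 -0.15, adjusted p = 0.6). Thbd was called higher at 1.23-fold by its brightest probe set only, and not without clamped replicate 1 or 2 or without control 1, 2, 3, 4 or 6.

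The endothelial list held rises and falls. Of 31 tested 6 rose and 6 fell (4 and 7 after quantile normalization, 6 and 4 with equal array medians). Their mean log2 signal was 10.53, 10.47 and 10.54 in the clamped lungs and 10.33 to 10.44 in the controls (exact permutation p = 0.0119, the smallest possible, adjusted p = 0.0333). That mean includes the large rises of Selp and Sele. The median member was 0.08 lower than control on the log2 scale (relative median 0.05), so the mean does not show a general rise of endothelial markers. The adhesion molecules Icam1 and Vcam1 rose 1.36-fold and 1.4-fold, though neither passed without replicate 1, nor Icam1 without replicate 3. Without replicate 1, 3 of these genes rose. Of the identity genes the VEGF receptor Kdr fell 1.49-fold (3417, 2872 and 4697 against 4994 to 5869.7), the capillary carbonic anhydrase Car4 1.92-fold and the adrenomedullin co-receptor Ramp2 1.7-fold. Plvap, Aplnr and Tal1 of the same list were also called lower, whereas Esam and S1pr1 were called higher. The junction genes Pecam1 and Cldn5 and the receptor Tie1 did not pass (log2 0.25, 0.21 and -0.10, adjusted p = 0.28, 0.22 and 0.59).

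Among vasoactive genes 5 of 29 rose (17.2%, beside 13.5% of all genes) and 7 fell (24.1%, the share of all genes). With equal array medians 9 rose and 5 fell. The vasodilator peptide Adm gave 1467, 842 and 476 against 132 to 283 (median 149.6), a rise of 4.49-fold (2.17 ± 0.41, adjusted p = 0.00068), and was higher than in the right lungs by 1.94 ± 0.47 (adjusted p = 0.038). The angiotensin receptor Agtr1a rose 2.04-fold, the channel subunit Kcnj8 2.53-fold and Nt5e, which makes adenosine outside the cell, 2.37-fold. Tbxa2r, the receptor of the vasoconstrictor thromboxane, fell 3.35-fold (87.5, 17 and 90.4 against 189.9 to 285, median 256), and the VIP receptor Vipr1 2.11-fold. Endothelin (Edn1) overlapped the controls and did not pass (1349.6, 1719 and 928 against 591 to 932, adjusted p = 0.096), nor did the inducible nitric oxide synthase Nos2 (221, 109 and 24.9 against 36 to 454, adjusted p = 0.31). In the eicosanoid group 3 of 24 genes rose and 4 fell. The inducible cyclooxygenase Ptgs2 had low signals of 403, 137 and 213 against 8.64 to 42.4 (adjusted p = 0.0013), and the leukotriene B4 receptor Ltb4r rose 2.68-fold and was higher than at 30 min (1.39 ± 0.34, adjusted p = 0.035). The leukotriene enzymes Lta4h and Alox5 fell 1.61-fold and 1.28-fold. Of 17 complement genes 1 rose, the decay factor Cd55 (1.78-fold, not called by its dimmer probe set), and 1 fell, Cfi (1.78-fold). Cd55, Cfi and Alox5 did not pass without replicate 1, nor Alox5 without replicate 2 or with equal array medians. Without replicate 1, 1 eicosanoid gene fell, and without replicate 3, 8 vasoactive genes rose. With equal array medians 4 eicosanoid genes rose and 2 fell, as did 3 and 1 complement genes.

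Genes of the integrated stress response and of the endoplasmic reticulum rose in 22 of 46 and fell in 2 (relative median 0.49). Atf4, its central transcription factor, gave 8163, 6584 and 6170.0 against 2432 to 3068 (median 2717), a rise of 2.52-fold (1.33 ± 0.13, adjusted p = 1.9e-06). Ppp1r15a, which restores translation, rose 3.18-fold, the death-linked factor Ddit3 2.04-fold, the asparagine synthetase Asns 1.82-fold and the tyrosyl-tRNA synthetase Yars1 2.43-fold. The reticulum chaperone Hspa5 stood at 7711, 5624 and 5732 against 2319.9 to 4066 (median 2663), a rise of 2.24-fold, and was higher than at 30 min (1.22 ± 0.20, adjusted p = 0.0039) and than in the right lungs (1.03 ± 0.20, adjusted p = 0.014). Of the 46 genes 8 were higher than at 30 min, as were 1.23% of all genes, and 6 than in the right lungs, as were 1.75%. Without 3 h replicate 1 the number was 1 in each comparison. Ddit3 passed in the same comparisons (0.91 ± 0.21 and 1.36 ± 0.21, adjusted p = 0.031 and 0.0027). Xbp1 did not pass (log2 0.20, adjusted p = 0.33). For Trib3, an inhibitor of Akt that ATF4 raises, 2 probe sets did not pass (log2 0.27 and 0.41) and the dimmest rose (1.97, adjusted p = 0.0015).

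Several carriers of nutrients rose. The arginine carrier Slc7a1 gave 1703, 1141 and 901 against 237 to 298 (median 266), a rise of 4.26-fold (2.09 ± 0.30, adjusted p = 8.2e-05). Slc7a5, which carries large neutral amino acids, rose 3.53-fold, the nucleoside carrier Slc28a2 3.05-fold, the mitochondrial ATP-Mg carrier Slc25a25 2.97-fold and the glutamate carrier Slc1a3 2.63-fold (2 dimmer probe sets of Slc1a3 did not pass). The peptide carrier Slc15a2, the equilibrative nucleoside carrier Slc29a1 and the serotonin transporter Slc6a4, a gene of lung capillaries, fell 2.05-fold, 1.69-fold and 1.6-fold. Of 48 transporters 17 rose and 11 fell (4 fell without replicate 1, Slc15a2, Slc29a1 and Slc6a4 not among them, while Slc29a1 and Slc6a4 did not pass without replicate 2, nor Slc6a4 with equal array medians). Factors of ribosome assembly and polyamine synthesis rose in 12 of 28 and fell in 1 (relative median 0.51), with Sat1, which acetylates polyamines, at 2.89-fold (10428, 8823 and 8965 against 2883 to 3582), Odc1, which makes them, at 2.81-fold, and the nucleolar protein Gnl3 at 2.54-fold.

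Of 43 genes of glycolysis and the response to hypoxia, 20 were higher and 4 lower (relative median 0.36), with 13 rising without replicate 1. The glucose carrier Slc2a3 gave 1239, 329 and 542 against 90.5 to 149 (median 115), a rise of 4.52-fold, which its dimmer probe set did not show (log2 0.28). The lactate exporter Slc16a3 stood at 1867, 1004 and 899 against 251 to 369 (median 345), a rise of 3.53-fold (1.82 ± 0.26, adjusted p = 6.3e-05). Pfkfb3, which speeds glycolysis, rose 3.06-fold by the brighter probe set only, Ndrg1 2.31-fold, Bnip3 2.28-fold, Ldha 1.81-fold and the factor Hif1a 1.59-fold. Not all targets of hypoxia-inducible factor moved, since Vegfa and Ddit4 did not pass (log2 -0.37 and -0.23, adjusted p = 0.095 and 0.54). The oxygen sensor Egln1 fell 1.51-fold. P4ha1, a collagen prolyl hydroxylase, was 1.75-fold above control and higher than at 30 min (1.27 ± 0.14, adjusted p = 0.00011) and than in the right lungs (1.46 ± 0.14, adjusted p = 1.6e-05).

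Among genes of metal and oxidant defence a few rose far. Signals of the metallothionein Mt2A, which binds zinc, were 12091, 10496 and 8444 against 376 to 959 (median 443), a rise of 18-fold (4.17 ± 0.32, adjusted p = 1.7e-07). Probe sets of metallothioneins can share sequence with other members of the family. Its RefSeq promoter window is printed with metal response elements (TGCACNC or TGCGCNC, both strands) in capitals, because it held 4 matches. At least 4 matches occurred in 0.834% of the windows of tested genes, and at least 1 in 37.4%.
Mt2A (chr19:10838659-10838958, minus strand): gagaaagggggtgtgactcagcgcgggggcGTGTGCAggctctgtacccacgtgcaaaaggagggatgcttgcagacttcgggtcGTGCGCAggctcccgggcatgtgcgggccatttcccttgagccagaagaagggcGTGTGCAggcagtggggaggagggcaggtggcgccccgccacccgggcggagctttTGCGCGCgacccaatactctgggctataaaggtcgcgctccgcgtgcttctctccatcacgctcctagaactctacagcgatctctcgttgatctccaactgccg
In the right lungs at 3 h the signals were 10059.8, 5319 and 15293, and the difference between the sides did not pass (0.13 ± 0.37, adjusted p = 0.88). Haem oxygenase, Hmox1, rose 5.78-fold (4574, 1844 and 1926 against 275 to 646, median 396), the sulfiredoxin Srxn1 7.23-fold (1242, 914 and 961 against 43.7 to 183, median 129.8), the mitochondrial dismutase Sod2 3.67-fold and the thioredoxin reductase Txnrd1 2.72-fold. The reductase Gsr and the transferases Gstm1 and Gstm2, enzymes that use glutathione and are named after their values were seen, were called lower, but none of the 3 with equal array medians or without clamped replicate 1. Each of them also lost the call without at least 2 of the controls. Of the enzymes that make glutathione Gclc rose 1.81-fold and Gclm did not pass (log2 -0.19, adjusted p = 0.26). Nqo1 did not pass either (log2 0.29, adjusted p = 0.12). Catalase (Cat) fell 1.69-fold and the thioredoxin inhibitor Txnip 1.89-fold. In all, 12 of 45 genes rose and 9 fell, with 3 falling under equal array medians and 3 without replicate 1.

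Of the genes of cell death and the p53 response 12 of 37 rose and 6 fell. The p53 antagonist Mdm2 gave 1723, 1511 and 1391 against 222 to 377 (median 331), a rise of 4.56-fold (2.19 ± 0.25, adjusted p = 1.1e-05), and was higher than in the right lungs by 1.40 ± 0.29 (adjusted p = 0.02). The caspase-8 regulator Cflar rose 4.91-fold (1526, 516 and 423 against 109 to 139, median 125), and the survival proteins Bcl2l1 and Mcl1 2.69-fold and 1.79-fold. A dimmer probe set of Bcl2l1 did not pass (log2 0.67, limma adjusted p = 0.091). The stress-arrest genes Gadd45g, Gadd45a and Gadd45b rose 4.32-fold, 3.74-fold and 3.18-fold, and the necroptosis kinases Ripk1 and Ripk3 3.0-fold and 2.31-fold. Xiap, an inhibitor of caspases, fell 2.46-fold. Cdkn1a, the p53-driven inhibitor of the cell cycle, was not called by its brighter probe set (log2 0.45, adjusted p = 0.09) and rose by a dimmer one (1.08, adjusted p = 0.0015). Xiap was 1 of the 6 that fell, and 2 genes of the list fell with equal array medians. The falls numbered 3 without replicate 1 and 2 without replicate 3. The 6 also included the death gene Bad and the caspases Casp2 and Casp6, named after their values were seen. Not all such genes fell, since the caspase Casp4 and the BCL2 family gene Bcl2l11 were called higher. Bad and Casp2 did not pass with equal array medians or without clamped replicate 1 or 3, nor Casp2 without replicate 2 or without control 1, 2, 5 or 6.

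Of 26 genes that respond to glucocorticoids 14 rose and 2 fell (relative median 0.84). Several of these also belong to the inflammatory lists. Fkbp5, a chaperone that dampens the receptor, gave 1038, 1612 and 964 against 255 to 507 (median 302), a rise of 3.5-fold, and Crispld2 rose 2.87-fold, Klf9 2.19-fold and the kinase Sgk1 1.62-fold (2619, 2640.1 and 2499.7 against 1434 to 1769). Tsc22d3 and Per1 did not pass (log2 0.11 and 0.24, adjusted p = 0.62 and 0.53), and the receptor Nr3c1 fell 1.44-fold. Of 14 clock genes 1 rose and 2 fell, with a wide spread among the controls. Signals of the clock output factor Dbp were 102, 92.9 and 67.4 against 92 to 675 (median 393), a fall of 3.03-fold (adjusted p = 0.012), and those of Nr1d1 were 598, 483 and 203 against 376 to 1211 (median 1170.0, adjusted p = 0.097). The times of day of collection are not in the labels. Nfil3, which competes with Dbp for its sites and answers stress too, rose 3.11-fold (962, 648 and 748 against 161 to 272).

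Fewer falls than rises were large, and regulators of growth and identity were among the largest. Prkaa2, which carries the kinase activity of AMPK, the cell's sensor of low energy, had signals of 6.54, 6.64 and 9.17 against 102 to 321 (median 273, adjusted p = 1.3e-07), with a group mean under 50, so that no fold is given. The alternative catalytic subunit Prkaa1 was 1.29-fold lower (545, 579 and 472 against 594 to 809, adjusted p = 0.027), but not with equal array medians, without clamped replicate 1 or 3 or without control 4 or 6. The BMP receptor Bmpr2, whose loss underlies inherited pulmonary hypertension, gave 388, 199 and 345 against 1311 to 2179 (median 1794), a fall of 5.43-fold (-2.44 ± 0.20, adjusted p = 4.6e-07). Foxo1, a target of insulin signalling, gave 133, 100.2 and 168 against 457 to 628 (median 506), a fall of 3.45-fold (-1.79 ± 0.17, adjusted p = 1.4e-06). Creb1, the factor that answers cAMP, gave 106, 138 and 76.6 against 261 to 628 (median 378), a fall of 3.29-fold. No clamped lung overlapped the controls in these genes. Mean signals of the other operated groups are given side by side because all comparisons with control share the same 6 arrays. For Prkaa2 they were 6.83 in left lungs at 30 min, 9.61 in right lungs at 30 min and 10.039 in right lungs at 3 h, against 7.45 in the clamped 3 h lungs and 249.5 in the controls. In the same order they were 382, 354, 317, 311 and 1769 for Bmpr2, and 139.9, 150.4, 114, 134 and 517 for Foxo1. The controls stood apart from all operated groups in these genes, clamped or not, and differences in handling between control and operated arrays were not tested.

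**Figure D4:**
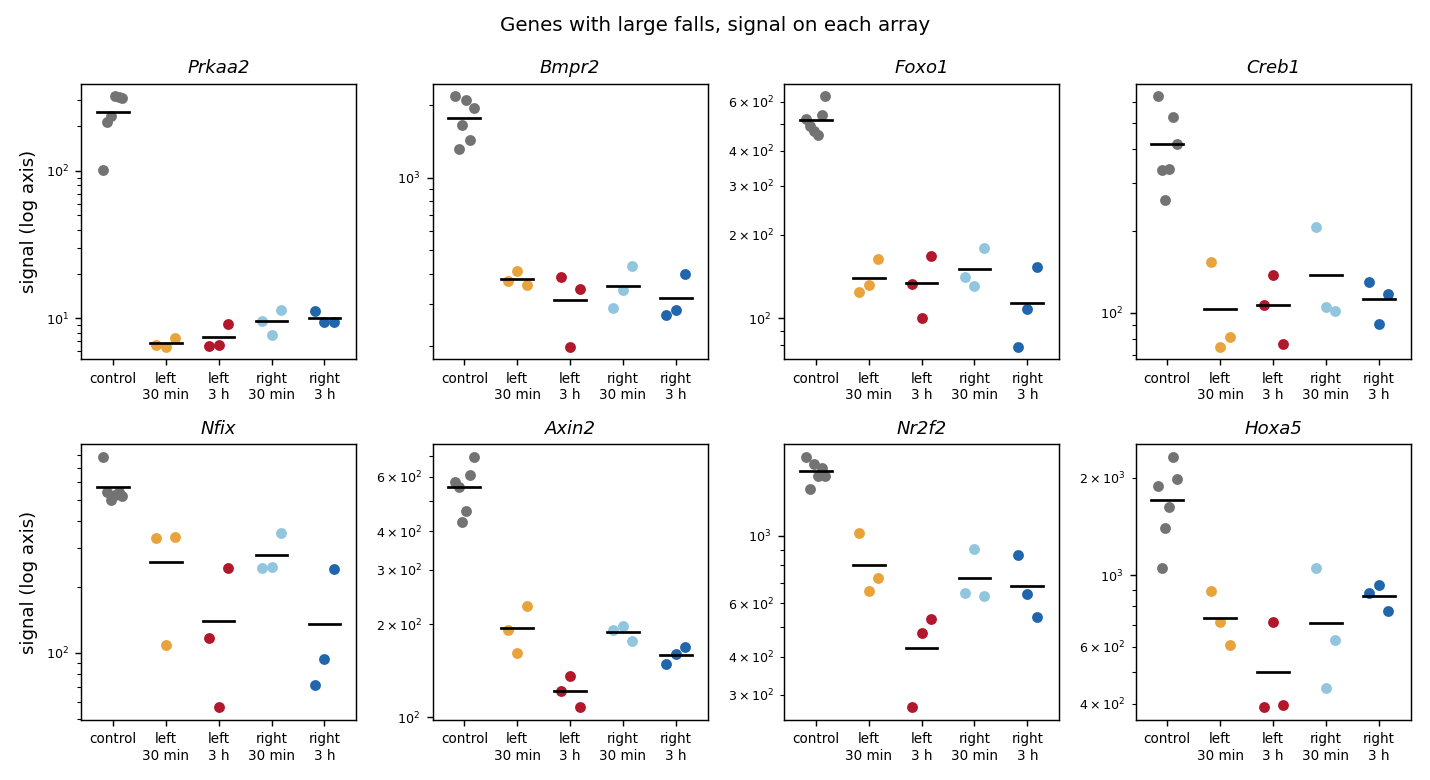
Signals of 8 genes with large falls on each array (log axis), in controls (n = 6), clamped left lungs at 30 min (n = 3) and 3 h (n = 3), and right lungs at 30 min (n = 3) and 3 h (n = 3). Points are arrays and bars are group means. The clamped 3 h lungs lie below every control in all 8 genes, and the group means of all operated lungs lie at 7 to 10 for Prkaa2 and 311 to 382 for Bmpr2.

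Some genes were lower both than in controls and than at 30 min, but each difference from 30 min given in this paragraph lost its call without 3 h replicate 1. Nr2f2, a nuclear receptor of veins and stroma, gave 272, 478 and 532 against 1422 to 1817 (median 1623), a fall of 3.78-fold (-1.92 ± 0.19, adjusted p = 3.3e-06), and was lower than at 30 min (difference -0.89 ± 0.22, adjusted p = 0.038). Mn1, a transcriptional coactivator, gave 10.2, 14.2 and 72.4 against 129 to 256 (median 194) and differed from 30 min by -1.36 ± 0.32 (adjusted p = 0.031). Lrrn3 fell 3.59-fold (72.1, 85.7 and 139 against 351 to 470.5, median 406) with a difference from 30 min of -1.25 ± 0.25 (adjusted p = 0.014), and Pgm2l1, which makes glucose bisphosphate, fell 3.27-fold with one of -1.01 ± 0.23 (adjusted p = 0.028). Dmtn, an actin-bundling protein of the membrane skeleton, stood at 22.9, 66.5 and 41.1 against 157 to 241 (median 188), with a difference from 30 min of -1.67 ± 0.30 (adjusted p = 0.0067). Further large falls were not called against 30 min. Chtf8, a factor that loads the DNA clamp, gave 252, 252 and 309.9 against 968 to 1209.9 (median 1077), a fall of 3.73-fold with the smallest adjusted p of the genes named here (-1.90 ± 0.11, adjusted p = 1.3e-08). Retnla, a protein of alternatively activated macrophages and allergic lung, fell 3.41-fold (1651, 691 and 1177 against 1941 to 5430.4), Palld, which bundles actin, 3.46-fold, and Tril, a partner of Toll-like receptor 4, 3.09-fold.

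In the AMPK and insulin list 12 of 26 genes fell and 1 rose (relative median -0.24), but 5 fell with equal array medians and 6 without replicate 1. Pik3ca fell 1.78-fold by the brighter probe set only, and Tsc2 1.64-fold. BMP and TGF-beta genes fell in 14 of 39 and rose in 5 (relative median -0.01; 9 and 7 with equal array medians). Without clamped replicate 1 or 3 or without control 5 or 6, 3 rose. Beside Bmpr2 the receptors Acvr2b, Acvrl1 and Bmpr1a fell 2.25-fold, 1.9-fold and 1.62-fold, the ligands Bmp3 and Tgfb1 2.49-fold and 2.09-fold and the inhibitor Smad6 1.8-fold. Other ligands went both ways, with Bmp2 and Tgfb2 called higher and Bmp6 and Tgfb3 called lower. The signal carrier Smad1 rose 2.07-fold and the repressor Tgif1 2.63-fold, and Fstl3 was called higher. Probe sets of Smad5 gave opposite results (log2 -0.51 and 0.64).

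Wnt and Notch genes fell in 15 of 33 and rose in 1 (10 and 2 with equal array medians, relative median -0.19). Axin2, the usual readout of canonical Wnt signalling, gave 121, 136 and 108 against 429 to 696 (median 567), a fall of 3.92-fold (-1.97 ± 0.14, adjusted p = 9.5e-08). The receptors Fzd2, Fzd1 and Lrp6 fell 2.61-fold, 2.59-fold and 2.46-fold, the T-cell factor Tcf7 2.01-fold and the Notch ligand Jag1 2.12-fold. Fzd4, Notch1 and Wif1 did not pass (log2 -0.01, -0.20 and -0.21, adjusted p = 0.95, 0.39 and 0.41). Among growth factor genes 12 of 31 fell and 6 rose, with 6 falling without replicate 1 and 7 with equal array medians. Receptors and binding proteins were among the falls, with Igfbp5 at 3.07-fold (377, 609 and 866 against 1712 to 2078, median 1799), Igfbp6 at 2.53-fold, Fgfr2 at 2.24-fold, Pdgfrb at 2.03-fold and Egfr at 1.59-fold. Egfr did not pass with equal array medians or without replicate 1 or 2. Of the other IGF binding proteins Igfbp3 was called higher and Igfbp7 lower, and Igfbp2 and Igfbp4 were not called. Of the ligands of the EGF receptor, Areg rose to 1624, 1349.8 and 1454 against 18.2 to 173 (median 83.4, 15-fold) and Hbegf to 953, 486 and 633 against 136 to 218 (median 178, 3.53-fold). Ereg did not pass (log2 0.32, adjusted p = 0.17).

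Transcription factors and chromatin genes of the lung fell in 23 of 57 and rose in 6 (relative median -0.20). With equal array medians 17 fell, and without replicate 1 14 fell and 3 rose. Nfix gave 117, 56.5 and 245 against 496 to 783 (median 534), a fall of 4.01-fold, and the patterning gene Hoxa5 gave 389.9, 715 and 396 against 1050.3 to 2322 (median 1759), a fall of 3.33-fold. The retinoid receptor Rarg fell 2.98-fold, the DNA methyltransferase Dnmt1 2.54-fold, Tbx5 2.19-fold (not called without replicate 1) and the histone demethylase Kdm5b 1.93-fold. Runx1, a factor of blood and injured epithelium, rose 3.44-fold (1075, 671 and 994 against 194 to 282, median 246) and Ets2 2.29-fold. Cell cycle genes fell in 9 of 28 and rose in 3 (relative median -0.22, 5 and 3 with equal array medians), with the cyclin Ccnd2 at 2.52-fold lower (675, 545 and 773 against 1406 to 1930.2). Markers of dividing cells, Mki67 and Ccnb1, did not pass (log2 -0.15 and -0.16, adjusted p = 0.62 and 0.39).

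Alveolar type II cells make surfactant, and type I cells cover the gas exchange surface. The defining genes of both were bright, with Sftpc, a surfactant protein, at 11825, 11709 and 12215 and the type I receptor Ager at 5546, 7486 and 7606 in the clamped lungs. Of 16 type II genes 6 fell and 2 rose (relative median -0.17). The lineage factor Nkx2-1 gave 564, 948 and 1091 against 1872 to 2338 (median 2234), a fall of 2.56-fold (-1.36 ± 0.19, adjusted p = 7.7e-05), and the mucin Muc1 gave 658, 1293 and 1507 against 2774 to 3229 (median 3109), a fall of 2.77-fold. The lamellar body lipid pump Abca3 gave 550.2, 1436 and 1528 against 2255 to 2683 (median 2378), a fall of 2.22-fold, and replicate 1 was the lowest in all 3 genes. The surfactant proteins Sftpa1 and Sftpb fell 1.26-fold and 1.31-fold (adjusted p = 0.029 and 0.045), but did not pass with equal array medians or without replicate 1, nor Sftpb without any 1 control and Sftpa1 without control 1, nor did Sftpa1 by its dimmer probe set. Sftpc and Sftpd did not pass (log2 -0.20 and -0.31, adjusted p = 0.17 and 0.065). The mean log2 signal of the 16 genes was 11.2, 11.6 and 11.5 in the clamped lungs and 11.7 to 11.8 in the controls (exact permutation p = 0.0119, the smallest possible, adjusted p = 0.0333). The fall of 0.13 in the median gene was not taken off these means, and the difference was not tested with it taken off. With equal array medians 4 of the genes fell and 2 rose.

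Of 12 type I genes 0 rose and 0 fell in the limma fit, and 2 had an unadjusted p under 0.05. With equal array medians 3 were called higher, and without replicate 3, which had the highest mean of these markers (11.7, against 11.1 and 11.3 in the other 2 and 11.5 to 11.6 in the controls), 4 were called lower. Of 18 airway genes 4 were lower (22.2%, beside 24.1% of all genes), with the club cell oxygenase Cyp2f4 at 2.26-fold lower (390.1, 643 and 661 against 736 to 2047) and Scgb1a1, the club cell secretory protein, not called (log2 -0.18, adjusted p = 0.22); without replicate 1 none of them was called.

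Fluid leaves the alveoli through epithelial sodium channels and the sodium pump. Of 29 genes of fluid transport 6 rose and 4 fell (1 falling without replicate 1, 7 without replicate 3, 0 with equal array medians). The channel subunits Scnn1a, Scnn1b and Scnn1g did not pass and scattered between the clamped lungs, with Scnn1g at 297, 586 and 1140.0 against 635 to 817. Replicate 1 was the lowest and replicate 3 the highest in all 3 subunits. The pump subunit Atp1b1 rose 1.48-fold (3548, 3579.9 and 3804 against 2253 to 2622) and the bicarbonate carrier Slc4a7 2.27-fold (1.18 ± 0.13, adjusted p = 5.7e-06). The water channels Aqp1 and Aqp5 did not pass (log2 0.23 and -0.32, adjusted p = 0.19 and 0.21). Of 50 genes of cell junctions and the cytoskeleton 13 rose and 9 fell (20 and 5 with equal array medians, 5 falling without replicate 1). The beta tubulin Tubb6 gave 3359, 1611 and 1394 against 109 to 408 (median 308), a rise of 6.68-fold, and was higher than in the right lungs by 2.36 ± 0.47 (adjusted p = 0.015). The tight junction claudin Cldn4, which injured alveolar epithelium makes, gave 381, 389 and 661 against 63.4 to 159 (median 91.3), a rise of 3.93-fold. The ephrin receptor Epha2 rose 2.44-fold, the actin cross-linker Actn4 2.26-fold and the connexin Gja1 1.98-fold (its dimmer probe set did not pass). Plakoglobin, Jup, fell 2.28-fold (979, 1298 and 1516 against 2529 to 3233) and the tight junction scaffold Tjp1 1.43-fold.

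Matrix genes were called no more often than all genes, with 12 of 53 lower (22.6%) and 6 higher (11.3%). The counts were 6 and 8 with equal array medians, and 7 fell without replicate 1. Col1a1, the main chain of fibrillar collagen, gave 1079.7, 1180.0 and 1811 against 2537 to 3910.1 (median 3310.3), a fall of 2.46-fold, and was lower than at 30 min (difference -0.97 ± 0.24, adjusted p = 0.035). Vitronectin, Vtn, fell 2.59-fold and the proteoglycan Vcan rose 3.63-fold (1194, 251 and 341 against 72.8 to 181). Of 26 proteases and their inhibitors 11 rose and 1 fell, and 6 rose without replicate 1. The inhibitor Timp1 gave 9261, 5549.8 and 3370.5 against 772 to 1013 (median 902), a rise of 6.12-fold (2.61 ± 0.31, adjusted p = 1.2e-05), the serpin Serpina3n rose 4.88-fold, the elastase inhibitor Slpi 3.43-fold and the protease Adamts1 2.81-fold. Serpina3n and Slpi did not pass without replicate 1. Stromal markers fell in 7 of 24 (29.2%, beside 24.1% of all genes) and 0 rose. Of the 24, 4 fell without replicate 1 and 5 with equal array medians, and their relative median was 0.01. Their mean log2 signal was 10.11, 10.16 and 10.14 in the clamped lungs and 10.22 to 10.39 in the controls (exact permutation p = 0.0119, the smallest possible, adjusted p = 0.0333). The fall of 0.13 in the median gene was not taken off these means, so they do not show a fall particular to stroma. Those that fell included the smooth muscle gene Lmod1 (2.13-fold) and the mesothelial gene Msln (1.68-fold).

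Fatty acid genes were called about as often as all genes. They fell in 11 of 42 (26.2%, beside 24.1% of all genes) and rose in 6 (14.3%, beside 13.5%). The counts were 5 and 7 with equal array medians and 5 and 3 without clamped replicate 1, and 7 fell without control 4. Of the oxidation enzymes Hadha fell 1.5-fold (632, 749 and 686 against 1009.7 to 1123), Hadh 1.54-fold and Eci1 1.67-fold. Angptl4, which blocks lipase, rose 2.52-fold with an overlap between groups (773, 582 and 202 against 119.5 to 283), and the triglyceride enzyme Dgat2 2.04-fold. Angptl4 did not pass without replicate 1. Of 52 respiratory chain genes 6 fell and 0 rose, but with equal array medians 3 fell and 5 rose. In this list 2 genes were lower than in the right lungs, as were 0.621% of all genes. The complex I genes Ndufb10, Ndufb8 and Ndufs1 fell 1.52-fold, 1.51-fold and 1.47-fold. Of 23 cholesterol genes 4 rose (17.4%, beside 13.5% of all genes) and 5 fell (21.7%, beside 24.1%). The counts were 2 and 2 without replicate 1, and 4 and 2 with equal array medians. Scarb1, a receptor of high density lipoprotein, rose 2.41-fold and Insig1, which restrains synthesis, 2.03-fold, the latter not without replicate 1 or 3.

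Ribosomal and translation genes rose in 4 of 42 with 0 falling, and all 4 were initiation factors, Eif1a, Eif2s2, Eif4e and Eif4a1, at 1.93-fold, 1.88-fold, 1.66-fold and 1.63-fold (a dimmer probe set of Eif4e did not pass). After quantile normalization 3 genes of this list fell, and with equal array medians 7 rose. Of 45 splicing and RNA-binding genes 16 rose and 3 fell (10 rising without replicate 1, 1 falling without clamped replicate 2 or 3 or without control 1, and 23 rising and 0 falling with equal array medians), with Srsf5 at 1.74-fold and Rbm3, a cold-induced protein, at 1.7-fold. Sf3b1 rose by its brightest probe set and fell by another (log2 0.55 and -0.68). Of 60 proteasome and ubiquitin genes 14 rose and 1 fell, with 8 rising without replicate 1 and 8 without replicate 2, and 9 without control 1. The counts were 29 and 0 with equal array medians, and after quantile normalization 14 and 4. Of 37 interferon and antigen presentation genes 6 rose (16.2%, beside 13.5% of all genes) and 2 fell, led by Ifit3 at 2.52-fold. Without replicate 1, 1 rose, and Ifit3 did not pass. In this list 9 rose and 0 fell with equal array medians. Mx2, an antiviral GTPase, was lower than in the 30 min lungs (difference -1.47 ± 0.24, adjusted p = 0.0034).

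Of 10 neutrophil markers 5 rose and 1 fell, though 0 fell with equal array medians or without clamped replicate 1 or 2. S100a8 and S100a9 form the calprotectin of neutrophils and monocytes, and their signals were 5853, 2824 and 2039.9 against 235 to 696 (median 338) and 10302, 6298 and 5154 against 847 to 2342 (median 1098), rises of 8.91-fold and 5.72-fold. The mean log2 signal of the 10 markers was 10.4, 9.39 and 9.01 in the clamped lungs and 8.12 to 8.59 in the controls, beside 8.97 to 9.97 in the right lungs at 3 h (clamped against control, exact permutation p = 0.0119, the smallest possible, adjusted p = 0.0333). Replicate 1, which held the highest signals of Il6, Cxcl2 and Ccl2 though not of Tnf or Csf1, had the highest mean of the neutrophil markers, and the part of these cells in those rises was not tested. Without it 3 markers rose. The chemokine receptor Cxcr2 reached 339, 121 and 111 against 82.7 to 115 and did not pass (adjusted p = 0.074). Macrophage markers rose in 3 of 19 (15.8%, beside 13.5% of all genes). They fell in 2, a share below the 24.1% of all genes. The rises numbered 6 without replicate 3 and 6 with equal array medians. Cd68 did not pass (log2 -0.20, adjusted p = 0.47).

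Lymphocyte markers fell in 7 of 20 and rose in 2 (9 falling without replicate 1, 3 without replicate 2 and 4 without control 3 or with equal array medians). The B-cell receptor chain Cd79b gave 82.4, 142 and 45 against 230.4 to 409.6 (median 301), a fall of 3.02-fold, and the T-cell kinase Lck fell 1.87-fold (716, 433 and 457 against 905 to 1076), while the cytokine receptor Il7r rose 2.35-fold, though not without replicate 1. Of 6 mast cell and basophil markers 0 rose and 2 fell. The stem cell factor receptor Kit fell 2.53-fold (165, 144 and 171 against 306 to 571) and the histamine enzyme Hdc 1.8-fold, and the mast cell protease Cpa3 did not pass (log2 -0.31, adjusted p = 0.38). Heart muscle genes were low in the clamped lungs and scattered in the controls, with Myl7, an atrial myosin, at 53.3, 41.9 and 75 against 39.957 to 1360.2 (adjusted p = 0.067). Of 20 muscle markers 1 rose, the skeletal actin Acta1 (3.51-fold), and 0 fell, although 4 fell without control 5. Their mean log2 signal was 7.03 to 7.31 in the clamped lungs, 7.02 to 8.56 in the controls and 8.32 to 9.56 in the right lungs at 3 h. Fabp3, a fatty acid carrier of muscle outside that list, differed from the right lungs by -3.13 ± 0.68 (adjusted p = 0.024). Of red cell and platelet genes 1 of 10 rose (the membrane skeleton gene Ank1, 1.65-fold, not called without replicate 1 or 3) and 0 fell, and haemoglobin, Hbb, stood at 12178, 14285 and 13389 against 11152 to 15011. None of 5 genes of other tissues passed.

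**Figure D5:**
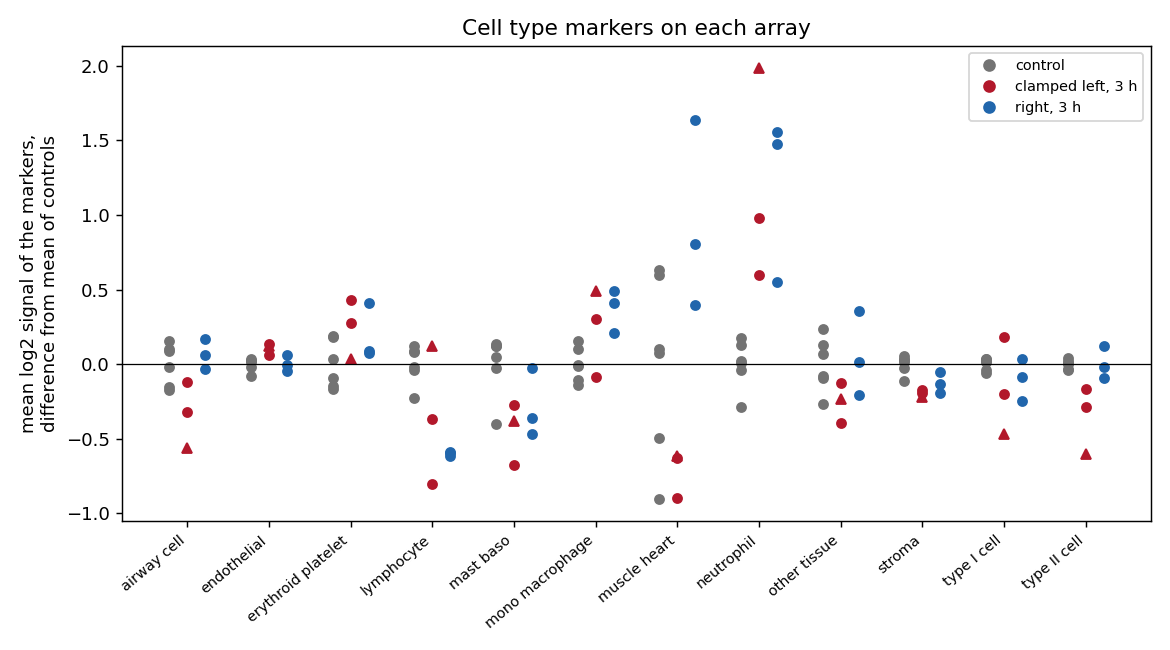
Mean log2 signal of each cell type marker list on each array, as the difference from the mean of the 6 controls, for controls (n = 6, grey), clamped left lungs at 3 h (n = 3, red, replicate 1 as a triangle) and right lungs at 3 h (n = 3, blue). Neutrophil and endothelial means lie above, and type II and stromal means below, every control in all 3 clamped lungs. The fall of 0.13 in the median gene is not taken off, and the relative median was 0.01 in the stromal list and -0.17 in the type II list. The endothelial list includes the selectins Selp and Sele, which rose far, and its relative median was 0.05. Muscle markers have their highest group mean in the right lungs, which overlap the controls.

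Direct comparisons with the lungs of the other time and the other side called far fewer genes than the comparison with control. Against the 30 min lungs 95 of 7728 genes were higher (1.23%) and 142 lower (1.84%) after 3 h. These counts turned on single arrays. They were 23 higher and 12 lower without 3 h replicate 1, 45 and 51 without 3 h replicate 2, 199 and 345 without 3 h replicate 3, 23 and 13 without 30 min replicate 1 (whose actin ratio was 4.81) and 29 and 41 without 30 min replicate 3. Beside chaperones the largest increases included the protease inhibitor Serpinb1a (1.32 ± 0.29, adjusted p = 0.025), and the largest decreases the nuclear pore protein Nup210 (-1.28 ± 0.21, adjusted p = 0.0031), the phosphatase Ptp4a3 (-1.24 ± 0.31, adjusted p = 0.035) and the aldo-keto reductase Akr1c14 (-1.25 ± 0.27, adjusted p = 0.022). Against the right lungs of the same time 135 genes were higher (1.75%) and 48 lower (0.621%) on the clamped side. They were 23 and 2 without 3 h replicate 1, 40 and 7 without right replicate 1, 65 and 15 without right replicate 2, and 203 and 161 without right replicate 3. Fosb, an AP-1 factor, was at 1677, 1249.8 and 3547 in the clamped and 33, 32.2 and 158 in the right lungs (4.55 ± 1.07, adjusted p = 0.034), Atf3 at 349.5, 276 and 548 in the right lungs (3.07 ± 0.70, adjusted p = 0.032) and Tfpi2 at 189, 85.3 and 700.2 (2.48 ± 0.58, adjusted p = 0.033). The secreted phospholipase Pla2g1b was lower on the clamped side (-1.06 ± 0.18, adjusted p = 0.0066). Of the 46 differences from the 30 min or right lungs that are given here gene by gene as called, 22 were called the same way whichever 1 array was left out and 23 without 3 h replicate 1. The 22 were those of Hspa1a, Hspb1, Hsph1, Dnaja1, Dnajb1, Bag3, Hspd1 and P4ha1 in both comparisons, of Hspa5, Mx2 and Nup210 against 30 min and of Csf1, Ddit3 and Pla2g1b against the right lungs. The other 24, those of Atf3, Fosb, Adm, Tfpi2, Tubb6, Mdm2 and the NF-kB genes among them, lost the call without at least 1 array. The left and right lungs came from the same rats, but the labels do not tie the arrays to rats, so the fit treated the lungs as independent. In these contrasts clamp and side cannot be told apart, since every clamped lung was a left lung.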

How the data were processed

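RNA from 18 rat lung samples had been hybridised to Affymetrix rat 230A arrays. The authors deposited 1 linear intensity per probe set and array, made with MAS5 per the submitters' processing notes, and scaled to a common trimmed mean of 500.1. Of 15923 probe sets 57 array controls were left out. From the rest, log2(signal + 25) was tested for the 10533 probe sets with at least 3 arrays above the 40th percentile, with limma 3.58.1 (R 4.3.3, lmFit and eBayes, all 5 groups in 1 fit, Benjamini-Hochberg adjustment over all probe sets tested, threshold 0.05). Array measures were compared by exact permutation over 84 splits. The scripts were tested on simulated data. Names came from GEO's platform annotation, which gave 12783 probe sets 1 symbol, 312 several and 2771 none, and the tested probe set brightest on average over all arrays (log2) stood for a gene. Promoter windows came from RefSeq, build GRCr8, and 6471 of 7728 genes had one.

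The members and the 48 gene lists were chosen with earlier results of these data known. A rule gave 446 genes to name from. It took the 20 largest rises and falls among called genes whose groups did not overlap, and the 10 largest differences each way in both direct comparisons. From each list it took the 5 called members of smallest adjusted p, called members of at least 2-fold and the list's preset key members. The text describes 292 genes and leaves out others that the rule gave, a choice made without a stated rule. Some further list members are only named as called or not called, without values, and are not among the 292. Alternatives covered the pseudocount, the filter, the scaling, the replicate numbers, the arrays in the fit, the variance model and each array left out. The number of arrays limits the precision. The text calls a gene higher or lower only at that threshold.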

Additional observations from a re-analysis of the deposited data

Results flagged for a closer look

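In 28 of 292 genes described in the text, 1 of the 6 controls stood far from the other controls by Dixon's criterion at the 95% level, which chance meets in about 1 of 20 groups. The highest control stood apart, with its signal in brackets, in Abca3 (2683), Cxcl12 (1669.5), Dnaja1 (2222), Epha2 (467), Fkbp5 (507), Hsph1 (1677), Nfix (784), S100a8 (696), S100a9 (2342), Selp (105), Slc29a1 (2834) and Tfpi2 (82). The lowest control stood apart in Ccl20 (135), Crem (60.5), Csf1 (265), Cxcl10 (64), Cxcr4 (1312), Eif2s2 (1271), Gclc (288), Ifit3 (184), Klf9 (1439), Ndufs1 (533), Nr3c1 (1124), Prkaa2 (102), Ptgs2 (8.64), Srxn1 (43.7), Tubb6 (109) and Vegfa (2836). 

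In 46 direct contrasts given in the text the clamped 3 h lungs differed from another operated group at a limma adjusted p under 0.05, which is also a difference between the 2 groups' changes from the shared controls. Against the 30 min lungs the log2 differences were those of Akr1c14 (-1.25), Bag3 (1.47), Col1a1 (-0.97), Csf1 (1.01), Ddit3 (0.91), Dmtn (-1.67), Dnaja1 (2.06), Dnajb1 (1.88), Hspa1a (2.55), Hspa5 (1.22), Hspb1 (2.03), Hspd1 (1.73), Hsph1 (2.32), Lrrn3 (-1.25), Ltb4r (1.39), Mn1 (-1.36), Mx2 (-1.47), Nr2f2 (-0.89), Nup210 (-1.28), P4ha1 (1.27), Pgm2l1 (-1.01), Ptp4a3 (-1.24) and Serpinb1a (1.32). Against the right lungs they were those of Adm (1.94), Atf3 (3.07), Bag3 (1.81), Birc3 (1.35), Csf1 (1.16), Ddit3 (1.36), Dnaja1 (2.52), Dnajb1 (2.36), Fabp3 (-3.13), Fosb (4.55), Hspa1a (3.90), Hspa5 (1.03), Hspb1 (2.42), Hspd1 (1.70), Hsph1 (2.38), Mdm2 (1.40), P4ha1 (1.46), Pla2g1b (-1.06), Rela (0.76), Relb (0.86), Tfpi2 (2.48), Tnfaip6 (1.75) and Tubb6 (2.36).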

How the results depend on the processing

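Probe sets called higher numbered 1456 and probe sets called lower 2521. With equal array medians 2073 were higher and 1336 lower, and after quantile normalization 1573 and 1924. Leaving out 1 array gave 945 to 1470 higher and 1354 to 2582 lower, lowest without clamped replicate 1. The 3 h against 30 min comparison called 366 probe sets, 192 without the filter and 53 to 776 with 1 array left out, and the comparison of the sides called 240, 138 without the filter and 35 to 461 with 1 array left out. Leaving out arrays of the 30 min and right lungs was chosen after seeing the data. Same-numbered arrays did not all deviate together (correlations of deviations 0.01, -0.11 and -0.08 between clamped lungs and controls, -0.17, 0.07 and -0.15 between the sides, and -0.16, -0.08 and 0.28 between the times), so the numbers were not taken to pair the lungs. The labels do not tie numbers to rats. Between the sides, clamped replicates 1, 2 and 3 correlated best with right replicates 3, 1 and 2 (0.34, 0.22 and 0.16), and no fit used this. A replicate block left 991 higher and 1570 lower, and the direct comparisons called 60 and 65.

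Of 292 genes described in the text 252 were called against control, 207 of them under every setting of the whole fit, and none reversed there. Lost calls numbered 39 without clamped replicate 1, 11 without replicate 2, 11 without replicate 3, 26 under the block, 16 with equal array medians and 10 after quantile normalization. Without replicate 1 these were Alox5, Angptl4, Ank1, Bad, Casp2, Cd55, Cfi, Cxcl12, Cyp2f4, Dusp1, Dusp5, Egfr, Egr1, Fos, Gsr, Gstm1, Gstm2, Icam1, Ifit3, Il1a, Il1b, Il7r, Insig1, Mx2, Nr4a3, Pla2g1b, Prkaa1, Rgs5, Serpina3n, Sftpa1, Sftpb, Slc15a2, Slc29a1, Slc6a4, Slpi, Tbx5, Thbd, Vcam1 and Zfp36l2. With equal array medians they were Alox5, Bad, Casp2, Cnot8, Cxcl12, Egfr, Fabp3, Gsr, Gstm1, Gstm2, Mx2, Pla2g1b, Prkaa1, Sftpa1, Sftpb and Slc6a4. Of 43 called genes with another tested probe set, 17 had one not called the same way. Another probe set gave the opposite direction for Sf3b1 (-0.68) and Smad5 (0.64), and the cause was not tested. For Dusp6, not called and near 0 by its main probe set, another gave 0.92.

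Depth does not apply to arrays, and signal near background limits the dim genes. No fold is given where a group mean was under 50. The control arrays differ from the operated ones in all that the operation and any separate handling bring, which cannot be told apart. Clamp and side cannot be told apart either, and the left and right lungs at 3 h came from the same rats.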
